A study of Mus musculus with 20 samples.

Results

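The genes described here encode the core machinery that fuses synaptic vesicles with the nerve terminal membrane. The set was 9 of the 26475 rows with a gene symbol: the membrane SNARE genes Stx1a, Stx3, Snap25 and Vamp2, the calcium sensor gene Syt1, and the SNARE recycling genes Nsf, Napa, Napb and Napg. A member was the row whose gene field held its symbol, and the row with the highest mean count would have been taken where several did. Each symbol had 1 row, so that no choice by count was made. The 9 symbols themselves were chosen by name with earlier results of these data (levels and group comparisons) known, so the counts of members given below describe the set and do not test it.

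RNA was sequenced with paired ends from the whole striatum of 20 male mice, the forebrain region where dopamine terminals from the midbrain meet the projection neurons of the basal ganglia. Mice belonged to a line selected for cage overactivity or to a control line, both labelled Collaborative Cross, a mouse population bred from several inbred founder strains. The 4 groups of 5 mice were overactive line given d-amphetamine, overactive line given saline, control line given d-amphetamine and control line given saline. The dose was 25 mg/kg, the tissue was taken 2 h after treatment, and the mice were about 6 months old. Amphetamine drives dopamine out of terminals by reversing its transporter, a release that does not need vesicle fusion. Each line is 1 selected or control population, so that selection for activity and other inherited differences between the lines cannot be told apart. Library totals were 31201299 to 53402746 counts over rows with a symbol. Levels are CPM, counts scaled to a common library size by the trimmed mean of M values (TMM).

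Fusion is carried out by SNARE proteins, which zip together across the gap between vesicle and plasma membrane. In neurons the vesicle contributes synaptobrevin, and the target membrane contributes a syntaxin and SNAP-25. Synaptotagmin binds calcium and triggers the final step. After fusion, the ATPase NSF is attached to the spent complex by SNAP adaptor proteins and pulls it apart for reuse.

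The sequences next to the transcription starts are shown for 4 members: the 2 genes with a line difference past the test (Stx3 and Napb) and a relative of each (Stx1a and Napa). Each covers 250 bases upstream and 50 bases downstream of a RefSeq start on GRCm38.p6, read 5′ to 3′ on the gene's strand. They are reference sequence, not sequence of the mice studied. Capitals mark matches on either strand to the GC box GGGCGG, the cAMP response core TGACG (also within the full element TGACGTCA) and the TATA box TATAAA.
Stx3, chr19:11819354-11819653, minus strand: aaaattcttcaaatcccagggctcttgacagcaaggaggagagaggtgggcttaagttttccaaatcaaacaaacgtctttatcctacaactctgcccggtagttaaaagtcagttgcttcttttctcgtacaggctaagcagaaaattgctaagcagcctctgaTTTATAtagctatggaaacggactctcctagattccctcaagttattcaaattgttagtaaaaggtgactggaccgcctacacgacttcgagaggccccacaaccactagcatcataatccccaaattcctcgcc
Stx1a, chr5:135023232-135023531, plus strand: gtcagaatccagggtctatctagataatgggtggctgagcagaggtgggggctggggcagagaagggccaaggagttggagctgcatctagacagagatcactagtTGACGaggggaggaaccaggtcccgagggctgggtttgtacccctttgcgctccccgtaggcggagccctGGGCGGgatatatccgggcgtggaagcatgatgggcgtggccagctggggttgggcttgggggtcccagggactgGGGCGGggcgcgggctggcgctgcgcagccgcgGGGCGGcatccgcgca
Napb, chr2:148732371-148732670, minus strand: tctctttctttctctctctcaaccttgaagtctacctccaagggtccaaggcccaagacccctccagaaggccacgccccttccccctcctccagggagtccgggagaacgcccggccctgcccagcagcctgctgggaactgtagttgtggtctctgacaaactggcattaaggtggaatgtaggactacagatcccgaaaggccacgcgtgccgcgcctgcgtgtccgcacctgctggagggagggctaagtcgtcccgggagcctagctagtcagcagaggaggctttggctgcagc
Napa, chr7:16098330-16098629, plus strand: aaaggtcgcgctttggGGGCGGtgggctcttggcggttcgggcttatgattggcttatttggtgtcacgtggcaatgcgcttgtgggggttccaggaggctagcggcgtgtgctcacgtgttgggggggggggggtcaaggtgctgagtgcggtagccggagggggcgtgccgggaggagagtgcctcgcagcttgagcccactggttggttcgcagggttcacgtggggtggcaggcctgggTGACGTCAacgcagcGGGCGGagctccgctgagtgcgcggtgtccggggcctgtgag
The Stx3 window held 44% G and C, no GC box and 1 TATA box match, which lay on the strand opposite to that of the gene. Its relative Stx1a had 66.3% G and C, 3 GC boxes and 1 cAMP response core. Napb held 61.3% G and C and no match to any motif searched. Napa held 67% G and C, 2 GC boxes and 1 full cAMP response element. Among 32544 RefSeq windows of this length, the median was 53% G and C, and matches were found in 35.9% for GGGCGG, 20.9% for TGACG, 1.80% for TGACGTCA and 13.6% for TATAAA. The AP-1 motif TGANTCA, found in 7.79% of windows, and CCAAT, found in 37.4%, were searched as well and are not in capitals; of the 4 windows shown, Napa held 1 CCAAT match and none held TGANTCA. TGACGTCA contains TGACG on both strands, so that those matches overlap. RefSeq windows were matched for 6 of the 9 members, and a match describes the letters only.

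On the genome, the rows spanned all or nearly all of the genes in the GENCODE M21 annotation (GRCm38). Stx3 was locus XLOC_016732 at chr19:11770414-11831199, and this row was shared with the olfactory receptor gene Olfr1417. The mitochondrial ribosome gene Mrpl16 lies in the same span on the other strand and had its own row. Napb was XLOC_019221 at chr2:148692955-148756761, with the gene Cstl1 on the other strand of the span in a row of its own. Stx1a was XLOC_024911 at chr5:135023473-135051905, Snap25 was XLOC_018015 at chr2:136527801-136782428, and Vamp2 was XLOC_004250 at chr11:69088527-69092381. Syt1 was XLOC_003281 at chr10:108497647-109010975 and Nsf was XLOC_005734 at chr11:103821760-103954056. On the same strand, the Syt1 span overlapped the protein-coding gene Gm5136 and the Nsf span the processed pseudogene Gm8738. Napa was XLOC_028444 at chr7:16098217-16117975 and Napg was XLOC_015425 at chr18:62977826-62999541. The Snap25 span also covered Ankef1 and was longer than the annotated gene. The spans of Stx3 and Napb were longer than their annotated genes too, which lie at chr19:11775118-11819403 and chr2:148693985-148732467. Whether the libraries kept strand is not given in the sources used here, so reads of genes on opposite strands of 1 span may not be separable. Napa and Napb shared an exact stretch of at most 26 bases, and Stx1a and Stx3 at most 20 bases.

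All 9 members passed the filter on low counts, among 17206 genes tested. Per kilobase of exon, averaged over 20 libraries, Vamp2 had the highest level at 257 CPM per kb (SD 15.9), followed by Snap25 at 245 (SD 29.0). The libraries' ranges of these 2 genes overlapped. Syt1 measured 158 CPM per kb (SD 18.1) and Nsf 93.5 (SD 7.97), each apart from its neighbours in the order. Among the adaptors, Napb at 58.6 CPM per kb (SD 8.80) stood above Napa at 46.5 (SD 3.17) with overlapping ranges, and Napg measured 18.9 (SD 1.43). Stx1a averaged 24.2 CPM per kb (SD 8.73) and overlapped Napg. Stx3, the syntaxin gene best known from sensory ribbon synapses and epithelial cells, was lowest at 8.15 CPM per kb (SD 1.36). With the longest transcript as the length, Stx1a and Napg changed places and the other 7 members kept theirs.

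**Figure D1:**
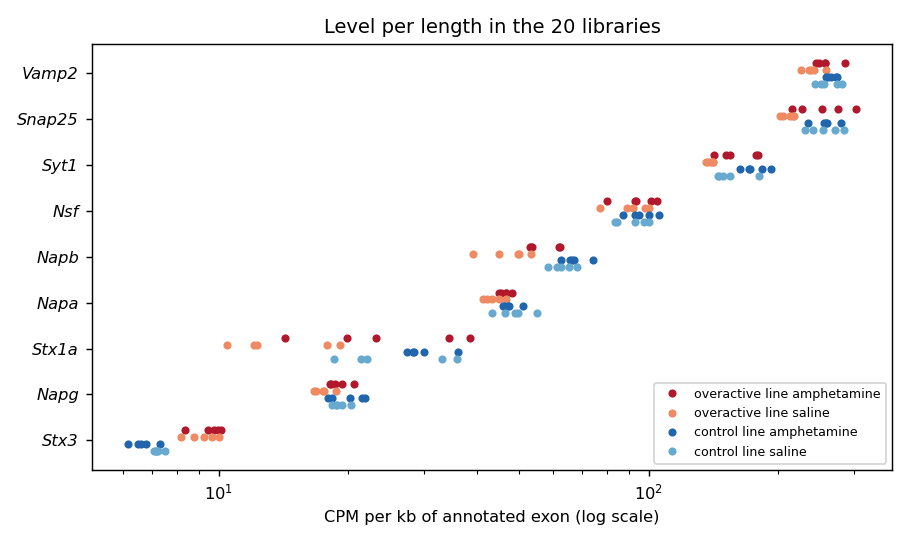
Level of each member in CPM per kilobase of annotated exon on a log axis, 1 point per library (20 libraries, coloured by group). Vamp2 and Snap25 are highest, with means of 257 and 245 CPM per kb, and Stx3 is lowest with 8.15.

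The striatal label was checked against markers. All 15 striatal projection neuron markers were in the table and none was at 0 in a library, and the dopamine receptor gene Drd1a averaged 218, 238, 258 and 256 CPM in overactive line amphetamine, overactive line saline, control line amphetamine and control line saline libraries. Markers of cortical and hippocampal excitatory neurons were also present: 18 of 19 were in the table and none was at 0. Their summed level was 636 to 1874 CPM in overactive line amphetamine libraries, 490 to 804 CPM in overactive line saline libraries, 1285 to 1782 CPM in control line amphetamine libraries and 781 to 1639 CPM in control line saline libraries. From that list, Slc17a7, which encodes a vesicular glutamate transporter, averaged 414, 137, 503 and 363 CPM in the same order of groups. Summed thalamic, hypothalamic and septal markers were 244 to 649, 288 to 711, 261 to 313 and 226 to 393 CPM in that order, with Hcrt at 0 in at least 1 library. Striatal markers themselves differed between groups without passing the test: all 15 had a negative log2 fold change for amphetamine in the overactive line (median -0.16), and 13 of 15 for overactive over control line after amphetamine (median -0.24). In bulk tissue, fewer cells of a type and less RNA per cell cannot be told apart.

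The first question was how the overactive line differs from the control line. After saline, Stx3 was higher and Napb was lower in the overactive line, and the remaining 7 members did not pass. These were 2 of 9 members, where 1.11% of all genes tested passed (0.639% higher and 0.471% lower). Of the 9 members, 8 had a negative log2 fold change, with a median of -0.16, against 49.9% positive and a median of -0.0003 over all genes. To pass, a gene needed an adjusted p under 0.05 in edgeR's quasi-likelihood test, with the Benjamini-Hochberg method applied to all 17206 genes.

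Stx3 encodes syntaxin-3, a target membrane SNARE. It measured 52.9, 46.7, 50.1, 57.1 and 55.2 CPM in the 5 overactive line saline libraries, against 40.4, 40.8, 42.9, 40.9 and 41.4 CPM in the 5 control line saline libraries. Under amphetamine the values were 56.9, 47.7, 55.8, 54.1 and 57.9 CPM in the overactive line, against 41.7, 37.7, 35.2, 38.8 and 37.1 CPM in control line libraries. All 10 overactive line libraries lay above all 10 control line libraries, a separation seen in 0.267% of all genes. The log2 fold change was 0.34 after saline (SE 0.06, 95% interval 0.22 to 0.47, edgeR adjusted p = 0.0112), a fold of 1.27. After amphetamine it was 0.52 (SE 0.06, 0.39 to 0.64, edgeR adjusted p = 0.000392), a fold of 1.43. Over both treatments it was 0.43 (SE 0.04, edgeR adjusted p = 1.55e-05), the 4th smallest p of all genes tested. Markers of several other cell types also had mostly positive log2 fold changes for overactive over control line over both treatments. Choroid plexus and ependyma markers were positive in 10 of 10 (median log2 0.75, 2 past the test). Their summed level was 53.3 to 969.7 and 67.9 to 884 CPM in overactive line amphetamine and saline libraries, and 41.6 to 294 and 42.3 to 774 CPM in those of the control line. Thalamic, hypothalamic and septal markers were positive in 17 of 18 (median 0.81, 0 past the test), and endothelial and mural cell markers in 10 of 12 (median 0.11, 2 past the test). Astrocyte markers were positive in 7 of 9 (median 0.20, 3 past the test as higher and 1 as lower). Oligodendrocyte markers were positive in 8 of 9 (median 0.19, 1 past the test). Fewer were positive among markers of microglia (3 of 10), striatal projection neurons (2 of 15), cortical neurons (3 of 18) and neurons in general (6 of 11). Endothelial and mural sums were 245 to 301 and 234 to 270.0 CPM in overactive line amphetamine and saline libraries, and 218 to 235 and 222 to 282 CPM in those of the control line. No choroid plexus, ependyma, endothelial or mural marker was at 0 in a library. The astrocyte marker Slc1a2 and the oligodendrocyte marker Mbp were each at 0 in at least 1 library. On each of these 2 lists, 9 of the 10 markers in the table were tested. The part of the choroid plexus, ependyma, endothelial, mural, astrocyte and oligodendrocyte markers in the Stx3 value was not tested. With the thalamic score as a covariate Stx3 had a log2 fold change of 0.44 (edgeR adjusted p = 9.44e-05) over both treatments. Mrpl16, on the other strand of the same span, had a log2 fold change of -0.03 (SE 0.05, edgeR adjusted p = 0.70) over both treatments. With the cortical marker score of each library as a covariate, the Stx3 log2 fold change was 0.43 after saline (edgeR adjusted p = 0.0200). Over both treatments it was 0.48 with this covariate (edgeR adjusted p = 4.20e-05).

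Napb encodes beta-SNAP, the brain form of the adaptor that brings NSF to spent SNARE complexes. It measured 353, 316, 350.2, 376 and 275 CPM in overactive line saline libraries, against 481, 411, 459.6, 432 and 440.5 CPM in control line saline libraries. Under amphetamine it measured 439, 378, 375, 436 and 374 CPM in the overactive line, against 463, 467, 473, 525 and 442 CPM in control line libraries. Within each treatment the lines did not overlap. Across treatments, 8 of 10 overactive line libraries lay below the lowest control line library. The log2 fold change was -0.41 after saline (SE 0.08, 95% interval -0.57 to -0.25, edgeR adjusted p = 0.0163), a fold of 0.751. After amphetamine it was -0.24 (SE 0.08, edgeR adjusted p = 0.186) and did not pass, and over both treatments it was -0.33 (SE 0.05, edgeR adjusted p = 0.00174). With the cortical marker score as a covariate the saline value was -0.32 (edgeR adjusted p = 0.262), and the value over both treatments was -0.27 (edgeR adjusted p = 0.04997, just under the threshold). Cstl1, on the other strand of the span, was low, at 0.391 and 0.364 CPM in overactive line amphetamine and saline libraries, against 0.578 and 0.659 CPM in those of the control line. Its log2 fold change over both treatments was -0.71 (SE 0.18, edgeR adjusted p = 0.0221), and its part in the Napb value was not tested.

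**Figure D2:**
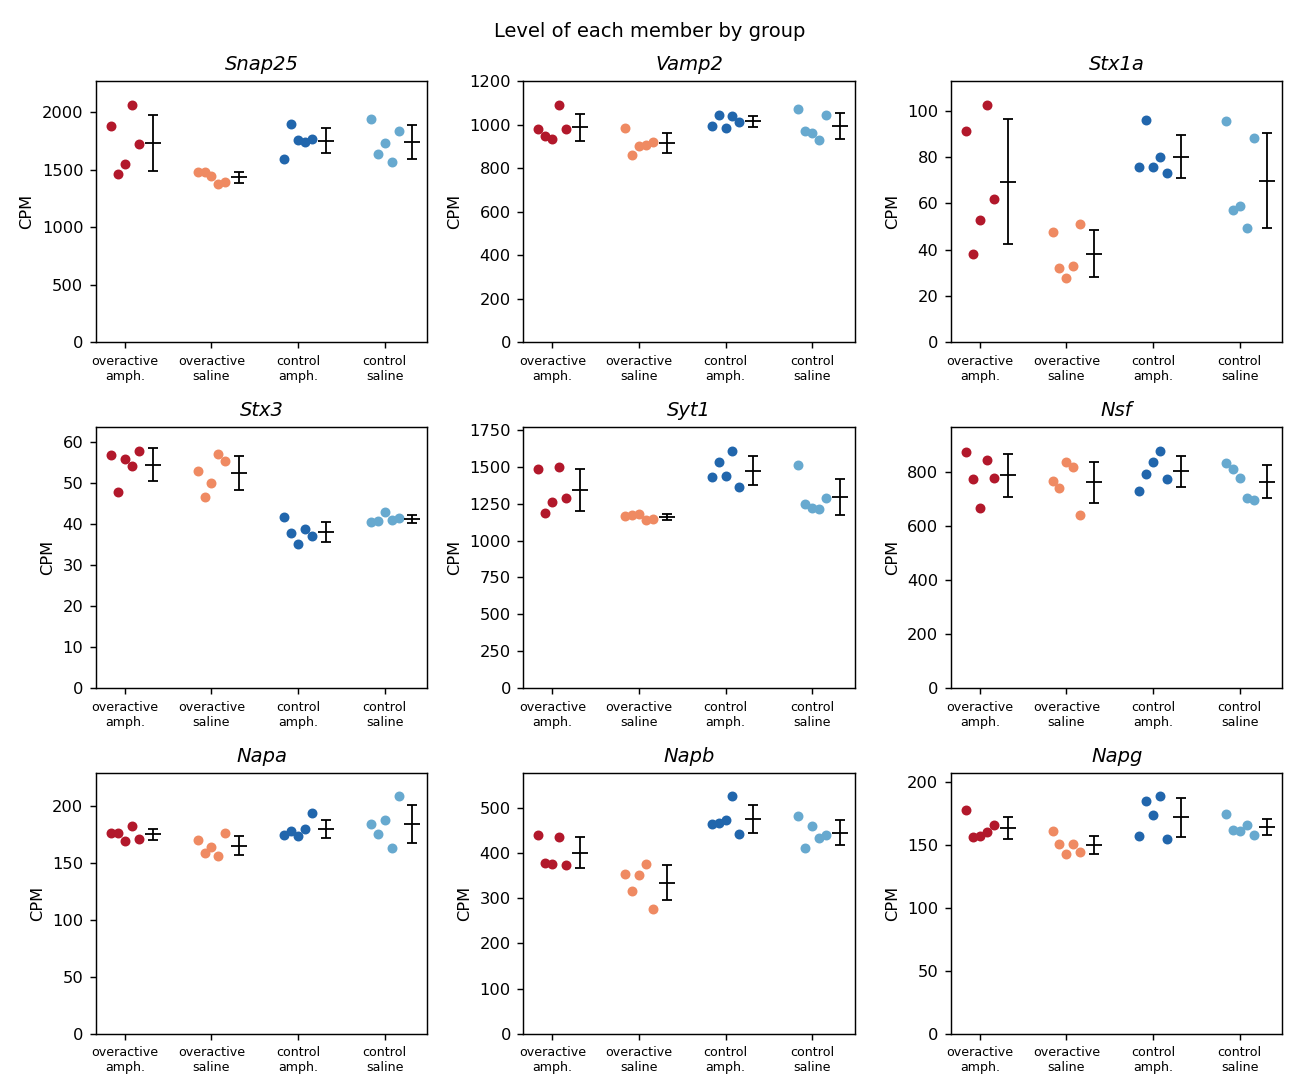
CPM of each member by group, 1 point per library (5 per group), with the group mean and SD drawn beside the points and the axis starting at 0. Stx3 separates the lines in all 20 libraries, Napb separates them within each treatment, and Stx1a spreads widely within groups.

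The other adaptor genes and the ATPase gave smaller differences. Napa, encoding alpha-SNAP, averaged 165 ± 8.29 CPM in overactive line saline libraries and 184 ± 16.6 CPM in control line saline libraries (SD, n = 5 each), with overlapping ranges (log2 -0.16, SE 0.05, edgeR adjusted p = 0.147). Napg, encoding gamma-SNAP, ranged over 143 to 161 CPM in the overactive line and 157 to 174 CPM in the control line after saline (log2 -0.13, edgeR adjusted p = 0.246). Nsf gave 642 to 838 CPM in overactive line saline libraries and 698 to 835 CPM in control line saline libraries, a log2 fold change of -0.01 (95% interval -0.17 to 0.16). The ratio of Napb to Napa in CPM, which compares a gene pair within a library, was 2.28 ± 0.15 and 2.03 ± 0.31 in overactive line amphetamine and saline libraries, and 2.64 ± 0.23 and 2.43 ± 0.21 in those of the control line (SD, n = 5 each). Its ranges overlapped between lines after saline (1.56 to 2.41 in the overactive line, 2.11 to 2.64 in the control line) and after amphetamine (2.14 to 2.49 in the overactive line, 2.28 to 2.92 in the control line).

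Stx1a encodes syntaxin-1A, a target membrane syntaxin of fast synapses. Its values after saline were 47.6, 32.2, 27.9, 32.8 and 51.2 CPM in the overactive line, against 95.5, 57.0, 58.9, 49.5 and 88.3 CPM in control line libraries. The highest overactive line library exceeded the lowest control line library, so that the groups overlapped. The log2 fold change was the most negative of the members, -0.86 (SE 0.24, 95% interval -1.37 to -0.36), and did not pass in edgeR (adjusted p = 0.0786). DESeq2 gave an adjusted p of 0.0137 for the same contrast. After amphetamine the log2 fold change was -0.21 (SE 0.24, edgeR adjusted p = 0.751, and -0.39 to -0.052 with 1 library left out), and over both treatments it was -0.54 (SE 0.17, edgeR adjusted p = 0.0608).

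Snap25 encodes the target membrane SNARE that supplies a pair of helices to the complex. It measured 1482, 1475, 1446, 1376 and 1393 CPM in overactive line saline libraries, against 1937, 1637, 1732, 1568 and 1838 CPM in control line saline libraries. These groups did not overlap, and the log2 fold change was -0.28 (SE 0.08, edgeR adjusted p = 0.0797). DESeq2 gave an adjusted p of 0.0254. After amphetamine the log2 fold change was -0.01 (SE 0.08, 95% interval -0.18 to 0.15). Vamp2, encoding synaptobrevin-2, ranged over 860.2 to 985 CPM in the overactive line and 930.4 to 1073 CPM in the control line after saline (log2 -0.12, SE 0.05, edgeR adjusted p = 0.217).

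Syt1 encodes synaptotagmin-1, the main calcium sensor of fast release. After saline it measured 1166, 1175, 1177, 1137 and 1147 CPM in the overactive line, against 1509, 1245, 1217, 1212 and 1288 CPM in control line libraries. The groups did not overlap, and the first control line library lay far above the other 4. The log2 fold change was -0.16 (SE 0.07, edgeR adjusted p = 0.251), and -0.091 without that library. Napb, Snap25, Stx3 and Syt1 thus had lines that did not overlap after saline, 4 of 9 members where 4.26% of all genes tested did so. After amphetamine this held for Napb and Stx3, 2 of 9 where 2.93% of all genes did.

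Under amphetamine, Stx3 alone of the 9 members passed between the lines, where 0.453% of all genes tested did (0.221% higher). Of 9 log2 fold changes, 8 were negative with a median of -0.04, against 51% positive and a median of 0.003 over all genes. Over both treatments, Stx3 and Napb passed, where 7.02% of all genes did (3.71% higher and 3.31% lower). Again 8 of 9 were negative with a median of -0.10, against 50.2% positive and a median of 0.0006 over all genes. The 2 comparisons within a treatment use separate libraries, and the one over both treatments uses the libraries of both. In DESeq2 4 of 9 members passed over both treatments, where 2095 of 17199 genes did. These were Stx3, Napb, Stx1a (DESeq2 adjusted p = 0.0194) and Syt1 (DESeq2 adjusted p = 0.0419). When single libraries were left out of edgeR's fit, Stx1a passed over both treatments without overactive line amphetamine library 1 or 4, overactive line saline library 5 or control line saline library 4. Syt1 passed without overactive line amphetamine library 1 or 4, and Snap25 without library 4.

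**Figure D3:**
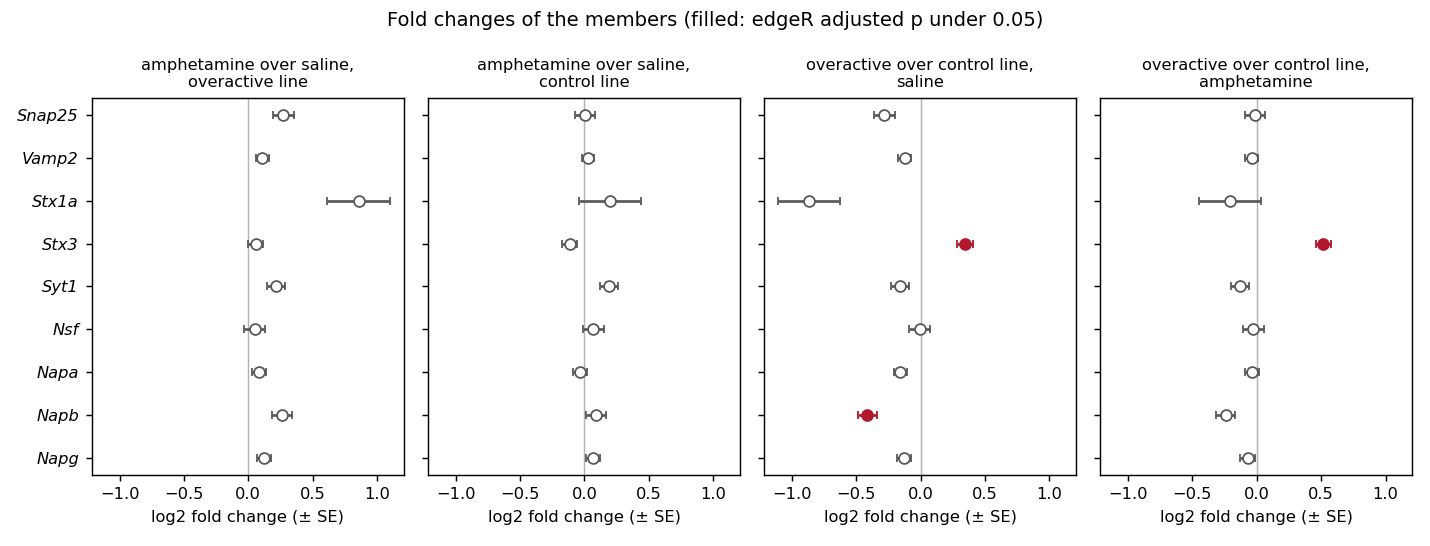
Log2 fold change of each member with its SE, from edgeR, for amphetamine over saline in each line and for overactive over control line in each treatment. Filled points passed at an adjusted p under 0.05: Stx3 in both line comparisons and Napb after saline.

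The second question was what amphetamine changed. In the overactive line all 9 members had a positive log2 fold change, with a median of 0.12, against 48.3% positive and a median of -0.004 over all genes. The 15 striatal projection neuron markers were all negative in the same comparison, and 17 of 18 cortical and hippocampal markers were positive (median log2 1.24). Relations of the members to both scores within groups are given below. The part of the striatal markers in the members' differences between groups was not tested. None of the 9 passed, and 0 of 17206 genes did (0%); 1382 genes (8.03%) had an unadjusted edgeR p under 0.05, and DESeq2 called 40 genes and 0 members. The overactive line saline libraries also enter the comparison of lines after saline, so that the signs in these comparisons are not independent of each other.

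Stx1a in the overactive line measured 91.4, 38.0, 53.0, 103 and 61.9 CPM after amphetamine, against 47.6, 32.2, 27.9, 32.8 and 51.2 CPM after saline. Of the 5 amphetamine libraries, 4 lay above every saline library, and the other lay inside their range. The log2 fold change was 0.86 (SE 0.24, edgeR adjusted p = 0.371). Snap25 gave 1874, 1462, 1544, 2063 and 1723 CPM after amphetamine in this line, against 1482, 1475, 1446, 1376 and 1393 CPM after saline (log2 0.27, SE 0.08, edgeR adjusted p = 0.371). Here too 4 of 5 amphetamine libraries were above all saline libraries. Napb had a log2 fold change of 0.26 (SE 0.08, edgeR adjusted p = 0.371), with 3 of 5 amphetamine libraries above all saline libraries.

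Syt1 measured 1482, 1183, 1264, 1501 and 1288 CPM in overactive line amphetamine libraries, against 1166, 1175, 1177, 1137 and 1147 CPM in overactive line saline libraries. It was the only member whose groups did not overlap in this line, 1 of 9 where 0.761% of all genes did not. Its log2 fold change was 0.21 (SE 0.07, edgeR adjusted p = 0.429). Stx3 had 0.06 (SE 0.06) and Nsf 0.05 (SE 0.08), the smallest values of the set.

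In the control line 7 of 9 members had a positive log2 fold change, with a median of 0.07, against 48.8% positive and a median of -0.004 over all genes. No member and 0 genes of 17206 passed in edgeR (0%), with 957 genes (5.56%) at an unadjusted p under 0.05, and DESeq2 called 0 genes. Syt1 measured 1429.7, 1531, 1439, 1610.1 and 1362 CPM after amphetamine, against 1509, 1245, 1217, 1212 and 1288 CPM after saline. The groups overlapped through the first saline library alone (log2 0.19, SE 0.07, edgeR adjusted p = 0.880). Stx3 had a log2 fold change of -0.12 (SE 0.06), with 4 of 5 amphetamine libraries below all saline libraries, and Snap25 had 0.01 (95% interval -0.16 to 0.17).

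Over both lines, Syt1 had the smallest p of the members for amphetamine (log2 0.20, SE 0.05, edgeR adjusted p = 0.210). DESeq2 called it at an adjusted p of 0.0267, as 1 of 161 genes, while edgeR called 0 genes (0%) and had 1895 genes (11%) at an unadjusted p under 0.05. The difference between the lines in the response to amphetamine passed for no member and for 0 genes (0%), with 510 genes (2.96%) at an unadjusted p under 0.05, and DESeq2 called 0 genes. Its 95% interval for Stx1a ran over log2 -0.05 to 1.37, around an estimate of 0.66. For Snap25 the estimate was 0.27 (0.03 to 0.50) and for Stx3 0.17 (-0.01 to 0.35), all with an edgeR adjusted p of 0.9999.

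The libraries in which several members were high were also those in which cortical markers were high. A cortical marker score was taken as the mean deviation of the list's log2 CPM, and both score and member were compared as deviations from their group means over 20 libraries. This gave 27 relations for 9 members and 3 scores, tested by permutation within groups. Stx1a followed the cortical score with Pearson r = 0.973 and Spearman rho = 0.935 (permutation p = 1e-05, the smallest they can give, and 2e-05, adjusted 0.00027 and 0.00054), and r = 0.958 without the 2 libraries farthest from the median score. Vamp2 had r = 0.823 and rho = 0.865 (adjusted permutation p = 0.00337 and 0.00121), and r = 0.835 without those 2 libraries. For Snap25 r was 0.787 and rho 0.671 (adjusted permutation p = 0.0052 and 0.0537), with r = 0.651 without them, and for Syt1 r was 0.718 and rho 0.648 (adjusted permutation p = 0.0052 and 0.0342), with r = 0.580. Stx3 (r = 0.471), Napb (r = 0.345), Napa, Napg and Nsf (r = 0.117) did not pass the adjustment, and no member passed with the thalamic or the striatal score. With the thalamic score r ran from -0.575 (Snap25) to 0.175 (Napb), with -0.574 for Stx1a and -0.517 for Syt1. With the striatal score it ran from -0.549 (Napb) to 0.134 (Napa).

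The cortical list itself moved between the groups. Its 18 members had a median log2 fold change of 1.24 for amphetamine in the overactive line (17 positive, 0 past the test) and of -1.12 for overactive over control line after saline (16 negative, 1 past the test). With the cortical score as a covariate, the Stx1a line difference after saline was -0.06 (SE 0.08), and its value for amphetamine in the overactive line was -0.06 (SE 0.08). Snap25 gave -0.07 and 0.05 in these comparisons, and Syt1 gave 0.005 and 0.03. For Stx3 the line difference after saline was 0.43 with this covariate, against 0.34 without it. The score averaged 0.19 and -0.77 in overactive line amphetamine and saline libraries, and 0.46 and 0.12 in those of the control line. Because the score comes from the same libraries and differs between groups, cortical content and group cannot be told apart by these fits.

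**Figure D4:**
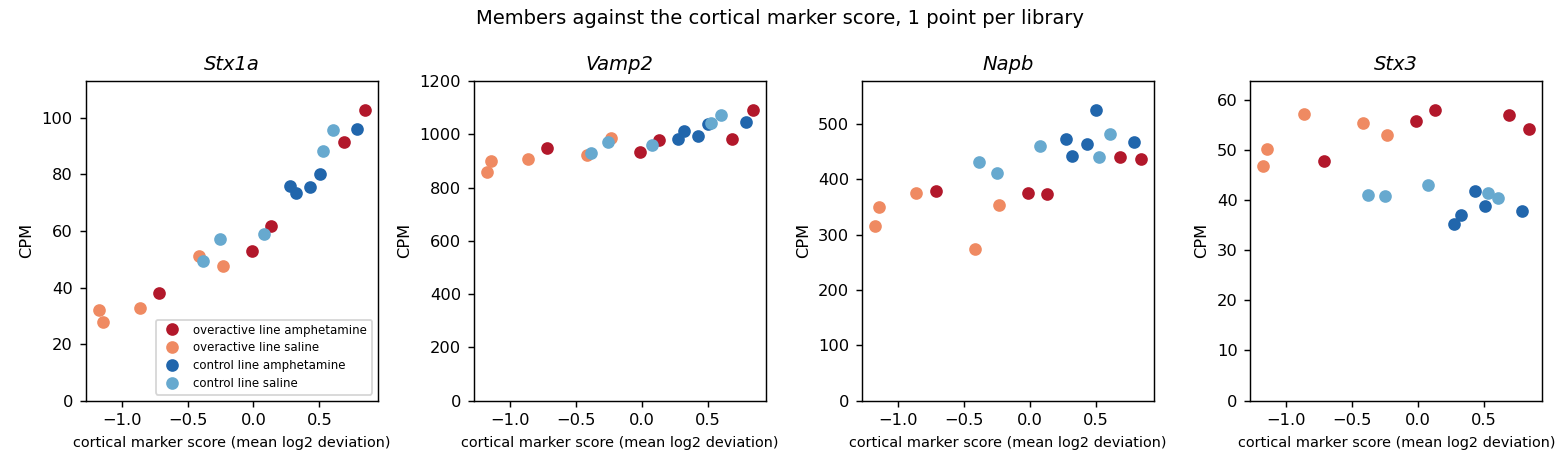
CPM of Stx1a, Vamp2, Napb and Stx3 against the cortical marker score of the same library, 20 libraries coloured by group. Stx1a follows the score (r = 0.973 for deviations from group means), while every overactive line library lies above every control line library for Stx3.

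Members also varied together within groups. Of 36 pairs, compared as deviations from group means over 20 libraries, 9 had an adjusted permutation p under 0.05. The highest were Snap25 with Stx1a (r = 0.813, rho = 0.740, adjusted permutation p = 0.005), Stx1a with Vamp2 (r = 0.806, rho = 0.854, adjusted p = 0.005 by permutation) and Snap25 with Syt1 (r = 0.798, rho = 0.744, permutation adjusted p = 0.0081). Without the 2 libraries farthest from the median of the first-named member, these r values were 0.691, 0.787 and 0.697. Napb went with Nsf (r = 0.760, rho = 0.725, adjusted permutation p = 0.005, and 0.663 without the 2 farthest libraries). Both were lowest in overactive line saline library 5 (275 and 642 CPM), where the score of markers of neurons in general was lowest as well (-0.24). The part of that score in this relation was not tested. Stx3 gave r of -0.145 to 0.352 with the other 8 members. The lowest pair was Napa with Napg at r = -0.223. These pairs share libraries and, for Snap25, Stx1a, Vamp2 and Syt1, the relation to cortical markers given above.

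Among 14378 genes with a mean of at least 1 CPM, the genes most like each member over the 20 libraries were found by Pearson r of log2 CPM. Stx1a was most like Slc17a7 (r = 0.988) and Rtn4r, a receptor for myelin proteins (0.982). Rtn4r was also among the closest to Vamp2 (0.911), after Myrip (0.942). Snap25 was closest to Acsl5 (0.945) and St8sia5 (0.922), and Syt1 to Lingo1 (0.937) and Pgm2l1 (0.934). Napg went with Wdr7 (0.922) and Mapk8 (0.885), Napb with Mansc1 (0.902) and Mapk9 (0.866), and Napa with Wdr24 (0.898) and Kifc2 (0.877). Stx3 had Rgs5, which is on the endothelial and mural marker list (0.861), and Wdr11 (0.832). Nsf had Nfe2l1 (0.828) and Luzp1 (0.825). The correlations take in differences between groups as well as within them.

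The wider fusion machinery was read from 4 lists. None of the 32 other SNARE genes tested (of 35 listed) passed in any of the 7 comparisons, with a median log2 fold change of -0.002 for overactive over control line over both treatments. Among them, the paralogs Snap23 of Snap25 (log2 -0.16, SE 0.06) and Vamp1 of Vamp2 (0.11, SE 0.14) did not pass. Among 34 regulators and priming factors tested, 2 were lower in the overactive line: Prrt2 (-0.22, SE 0.05, edgeR adjusted p = 0.0221) and the active zone scaffold gene Erc1 (-0.17, SE 0.05, edgeR adjusted p = 0.0437). The complexin gene Cplx1 (0.08, SE 0.05) and the priming gene Unc13a (-0.09, SE 0.09) did not pass.

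Of 27 synaptotagmins and related sensors tested, 2 were higher and 4 lower in the overactive line over both treatments. The row shared by Doc2g and Nudt8 was higher (0.37, SE 0.07, edgeR adjusted p = 0.00563), as was Rph3al (0.88, SE 0.23, edgeR adjusted p = 0.0277). Syt7, a slow, high-affinity calcium sensor gene, was lower (-0.20, SE 0.05, edgeR adjusted p = 0.0195), as was Syt4 (-0.20, SE 0.05, edgeR adjusted p = 0.0309). Syt14 (-0.20) and Syt16 (-0.21) were the other two, named after their values were seen. Syt2, the paralog of Syt1, had -0.04 (SE 0.08). Of 45 vesicle membrane and cycle genes 1 passed, Rab3d, a small GTPase gene, which was lower (-0.44, SE 0.11, edgeR adjusted p = 0.0231). These 9 genes were called in the comparison where 7.02% of all genes were, and none of the 138 genes on the 4 lists passed in edgeR in the other 6 comparisons. With the cortical score as a covariate 0 of the 138 passed over both treatments.

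For amphetamine in the overactive line, 27 of 34 regulators had a positive log2 fold change (median 0.12), as had 32 of 45 vesicle genes (0.08), 14 of 27 synaptotagmins (0.02) and 17 of 32 other SNARE genes (0.02), with 0 past the test in each. In the control line it was 28 of 34 regulators (median 0.10), 32 of 45 vesicle genes (0.05), 16 of 27 synaptotagmins (0.03) and 13 of 32 other SNARE genes (-0.02).

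**Figure D5:**
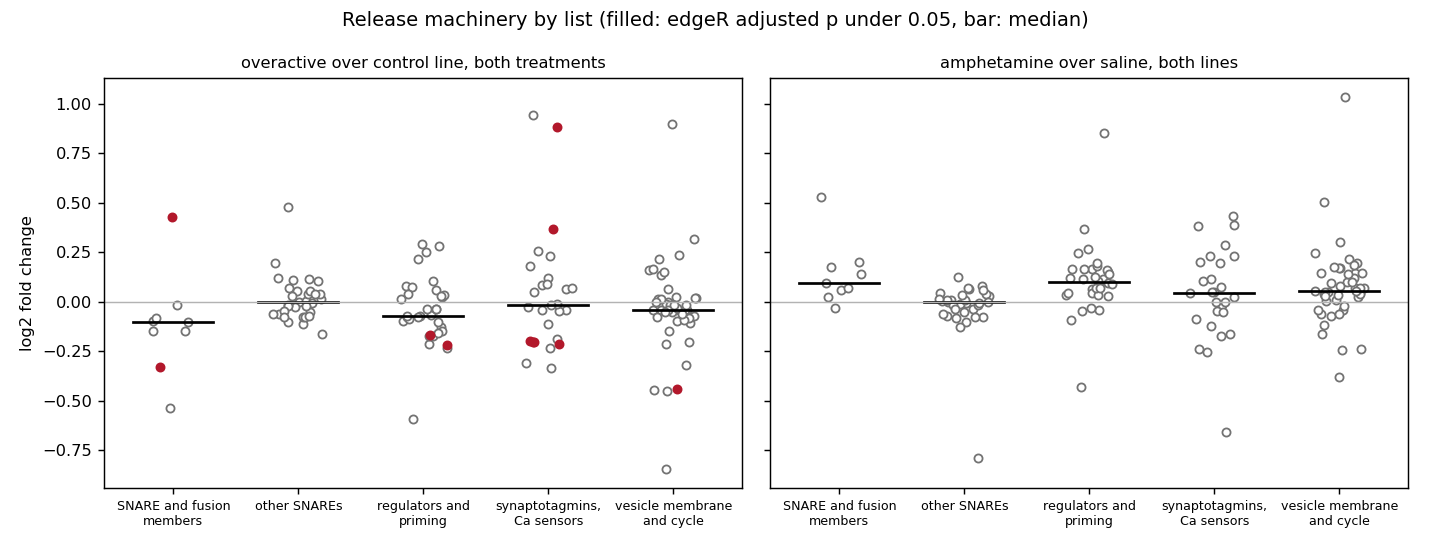
Log2 fold changes of the members and of the 4 wider lists, 1 point per gene with the median as a bar and filled points past the test, for overactive over control line over both treatments and for amphetamine over saline in both lines. The 9 members have medians of -0.10 and 0.09 in the panels, and the 32 other SNARE genes have medians of -0.002 and -0.003.

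Around the members, 231 genes tested lay within 1 Mb. Near Stx3, 1 of 21 neighbours passed between the lines over both treatments, the macrophage gene Mpeg1, which was lower in the overactive line. Near Napb it was 2 of 8, Cstl1 and Cd93, both lower. Cstl1 lies inside the Napb span on the other strand, so that its reads may not be separable from those of Napb. Napa had 3 of 37, Snap25 1 of 8, Vamp2 4 of 76 and Nsf 1 of 28, and Stx1a (42 neighbours), Napg (9) and Syt1 (2) had 0. These neighbours were named after their values were seen, and 7.02% of all genes passed in this comparison.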

How the data were processed

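The authors deposited 1 table of expected counts per locus for 20 libraries of mouse striatum, not scaled between libraries. The submitters' processing notes name mm10 and GRCm38, and the aligner and counting tool are not given in the sources used here. Of 37051 loci, 10576 without a symbol (0.65% of counts) were left out, and 93.9% of values were whole within 0.01. Estimated counts that are shared between overlapping genes or near copies depend on how the counting tool split reads. Expected counts were rounded to whole numbers and analysed with edgeR 4.0.16 in R 4.3.3: filterByExpr (17206 genes), TMM, and 1 quasi-likelihood model of 4 group means for 7 comparisons, two-sided, with Benjamini-Hochberg adjustment over all genes tested. The SE is the log2 fold change divided by the square root of F, and 95% intervals use the t distribution with the degrees of freedom of that test. Per-library values are CPM, and correlations use log2 CPM with a prior count of 2 and 100000 permutations within groups.

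The members, gene lists and tests were chosen with earlier results of these data known. The genes named were all 9 members, list genes that passed (at most 4 per list and comparison), fixed paralogs and partners, a few marker genes and the 2 genes most like each member. Some of the fixed genes are not reported here. Samples were grouped by the labels, 1 library per mouse, with 5 per group. Within groups, libraries correlated at r = 0.987 to 0.993 and no 2 columns were identical. Alternatives were RLE scaling, DESeq2 1.42.0, 2 other filters, a fit without the groups outside a comparison, a block for the replicate number, a cortical marker score as a covariate, each library left out and, for the order by level, the longest transcript as the length. A thalamic marker score as a covariate was added after the data were seen. Sequences and motifs were read with Python 3.11.15 from RefSeq windows on GRCm38.p6, and figures were drawn with matplotlib 3.10.9.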

Additional observations from a re-analysis of the deposited data

Results flagged for a closer look

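Each member was screened for a library far from the other 4 of its group, 36 pairs of member and group in all, of which chance marks about 1 in 20. Napa in control line amphetamine library 5 stood at 194 CPM, where the other 4 libraries lay between 174 and 179.6 CPM (gap over range 0.713). Syt1 in control line saline library 1 stood at 1509 CPM, where the other 4 lay between 1212 and 1288 CPM (gap over range 0.743).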

How the results depend on the processing

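Stx3 (after saline, after amphetamine and over both treatments) and Napb (after saline and over both treatments) passed in 20 of 20 fits that left out 1 library. The number of members past the test over both treatments was 2 to 5 in those fits and stayed at its value in the other 6 comparisons. DESeq2 called 4 members between lines after saline, 4 over both treatments and 1 (Syt1) for amphetamine over both lines. With the cortical score as a covariate 1 member, Stx3, passed after saline. Same-numbered libraries of different groups were treated as unpaired in the main fit. The 30 such pairs had r of -0.23 to 0.25 (median 0.035), 10 of them over 0.1. Differently numbered libraries of different groups had a median r of -0.0085. With the replicate number as a block 3 members passed over both treatments (Stx1a added, log2 -0.57, edgeR adjusted p = 0.0404) and 1225 genes in all.

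With the cortical covariate, log2 fold changes changed sign for amphetamine in the overactive line (Napa -0.0037, Stx1a -0.057, Stx3 -0.036, Vamp2 -0.020), in the control line (Snap25 -0.069, Stx1a -0.074, Vamp2 -0.018) and over both lines (Napa -0.034, Snap25 -0.012, Stx1a -0.066, Vamp2 -0.019). Between the lines it did so for Nsf (0.027) and Syt1 (0.0048) after saline, Snap25 (0.040) after amphetamine and Nsf (0.0049) over both treatments, and in the difference of responses for Vamp2 (-0.0011) and Syt1 (-0.094). The thalamic covariate turned Snap25 for amphetamine in the control line (-0.021) and between lines after amphetamine (0.054). The cause was not tested, and none of these values passed in either fit.

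Leaving out 1 library turned small values: Napa (-0.070 to 0.016) and Snap25 (-0.027 to 0.049) for amphetamine in the control line, Nsf for amphetamine in the overactive line (-0.0067 to 0.104), Snap25 after amphetamine between lines (-0.084 to 0.043), Syt1 (-0.041 to 0.061) and Nsf (-0.076 to 0.031) in the difference of responses, and Nsf between lines after saline (-0.038 to 0.050), after amphetamine (-0.067 to 0.031) and over both treatments (-0.036 to 0.016).

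Counts over all genes were 191, 78 and 1208 between lines after saline, after amphetamine and over both. They were 764, 322 and 2095 in DESeq2, 18, 58 and 166 with the cortical and 108, 39 and 445 with the thalamic covariate, 30 after amphetamine with only the groups compared, 51 there with the block, and 70 to 255, 24 to 85 and 765 to 1379 with a library left out. Genes of the 4 wider lists over both treatments numbered 9, against 17 in DESeq2, 12 with the block, 6 with no filter, 2 with the thalamic and 0 with the cortical covariate, and 5 to 11 with a library left out. DESeq2 also called 7 of them after saline, 2 after amphetamine, 10 for amphetamine over both lines and 2 for amphetamine in the overactive line, where edgeR called 0. The number of libraries, 5 a group, limits the smaller differences that can be told from the spread.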
